A study of Macaca mulatta with 81 samples.

Results

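The genes described here are MTOR, RPTOR, RICTOR, TSC1, DDIT4, SESN1, SESN3, RPS6KB1 and IRS2, which encode the kinase mTOR, its partners, its inhibitors, a substrate and an adaptor that feeds it. They were taken by symbol from a list of 10 genes of the pathway. Each gene was read by the probe set that the array's gene table assigns to that symbol alone, and by the one with the highest mean over all 81 arrays where there were several. A probe set was found for 9 of the 10 symbols, 18 probe sets in all, among 14133 genes with such a probe set. EIF4EBP1, which encodes a translation repressor that mTOR inactivates, was not analysed here. All 9 genes passed the filter on low values (above 4.65 on the log2 scale in at least 2 arrays) that left 11807 genes for testing.

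CD3+ cells were sorted from blood of rhesus macaques, and their RNA was hybridised to Affymetrix arrays, 81 from 50 animals. The labels abbreviate the prophylaxis against graft-versus-host disease. Siro is read here as sirolimus, Bela as belatacept (a CD28 ligand blocker), Tac.Mtx as tacrolimus with methotrexate, and FR104 is known as an antibody fragment against CD28. The sirolimus-containing groups were Siro.F (n = 4), Bela.Siro.D14 (n = 3), Bela.Siro.D30 (n = 3), Bela.Siro.F (n = 2), FR104.Siro.D14 (n = 4) and FR104.Siro.F (n = 4), 20 arrays from 11 recipients of allogeneic cells. The other transplant groups held 27 arrays from 16 animals. Of these, Bela.F (n = 3), FR104.D14 (n = 3), FR104.F (n = 3), Tac.Mtx.D14 (n = 3), Tac.Mtx.D30 (n = 2) and Tac.Mtx.F (n = 3) were allogeneic with a prophylaxis, and NoRx.F (n = 4) was allogeneic with none. Auto.D14 and Auto.D36 (n = 3 each) had received their own cells, also with none. Healthy controls that had not been transplanted gave 34 arrays. The number in a group's name is the day after transplant and F a final sample, but the 4 FR104.Siro.D14 arrays were labelled day 14, 14, 22 and 34 and 1 Bela.Siro.D30 array day 29.

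Some animals gave arrays in more than 1 group, and 11 transplanted animals also had a healthy array of their own. All arrays of FR104, FR104.Siro and Auto were in batch 4, those of Bela, Bela.Siro and Tac.Mtx in batch 3, and those of NoRx and Siro in batches 1 and 2, with healthy controls in all 4. The 3 T cell markers that could be measured (CD5, CD6, ZAP70) had a mean log2 signal of 9.73 to 10.63 in every array. The chains of CD3 had no usable probe set. Probe sets of spiked-in control transcripts were above the highest healthy control in all 4 FR104.Siro.D14 arrays and in 1 array of each of 4 other groups (Bela.Siro.F, FR104.Siro.F, FR104.D14, Auto.D14). In every Auto.D36 array the spike-in signal (10.53 to 10.73) lay below every healthy control (10.75 to 11.53). The actin 3' minus 5' signal, a measure of RNA quality, was 0.430 to 3.83 in healthy controls. It lay below that range in every array of Auto.D36 (-0.34 to -0.30), FR104.D14 (0.02 to 0.37) and FR104.F (0.09 to 0.425). Each array is a bulk sample, so a gene's lower signal in fewer cells cannot be told apart from less of its RNA per cell.

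mTOR is a kinase that works in a pair of complexes. In mTORC1 it is joined by raptor (RPTOR) and drives protein synthesis and growth through the S6 kinase (RPS6KB1) and the 4E-BP proteins, while in mTORC2 it is joined by rictor (RICTOR) and phosphorylates AKT. Growth factor signals reach it through insulin receptor substrates such as IRS2, PI3K and AKT, which relieve the brake set by the TSC complex (TSC1), and DDIT4 and the sestrins (SESN1, SESN3) hold mTORC1 back under stress or lack of amino acids. The FOXO factors, which AKT shuts out of the nucleus, are known to drive the genes of sestrins and IRS2. Sirolimus binds the protein FKBP12 and the pair blocks mTORC1. These arrays measure RNA, not the activity of the kinase.

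Across the 15 transplant groups, SESN1, SESN3, IRS2, RICTOR, TSC1 and RPS6KB1 each differed from healthy controls in some groups. Group differences of MTOR ran from -0.20 to 0.13 on the log2 scale and those of RPTOR from -0.33 to 0.19. SESN3 was higher than in healthy controls in 11 groups, including all 6 sirolimus-containing ones. IRS2 was lower in 8, SESN1 in 6, RICTOR in 5, TSC1 in 3 and RPS6KB1 in 2. MTOR, RPTOR and DDIT4 passed the threshold (limma, adjusted p under 0.05) in none of the 15. In NoRx.F, Siro.F, Tac.Mtx.F and Auto.D36, 4 of the 9 genes were lower each, in Bela.F and FR104.F 2, and in Bela.Siro.D30, FR104.D14, Tac.Mtx.D30 and Auto.D14 1 each.

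These counts stand beside the shares of all genes tested that passed in the same direction. In the 11 groups where SESN3 passed, the share of genes that were higher was 8.26% in Siro.F, 1.99% in Bela.Siro.D14, 4.23% in Bela.Siro.D30, 1.87% in Bela.Siro.F, 8.52% in FR104.Siro.D14 and 2.91% in FR104.Siro.F. It was 12.4% in Bela.F, 2.58% in FR104.D14, 5.39% in FR104.F, 1.4% in Tac.Mtx.D14 and 10.7% in Tac.Mtx.F. The share of genes that were lower was 15.4% in NoRx.F, 8.89% in Auto.D36, 6.34% in Siro.F, 5.28% in FR104.F, 5.25% in Bela.F, 3.41% in Tac.Mtx.F, 2.95% in Bela.Siro.D30, 2.8% in FR104.D14, 1.92% in Auto.D14 and 0.61% in Tac.Mtx.D30. In NoRx.F 4 of the 9 genes (RICTOR, TSC1, SESN1 and IRS2) lay below every healthy control in every array, as did 4.9% of all genes. All 15 comparisons share the same 34 healthy arrays.

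**Figure D1:**
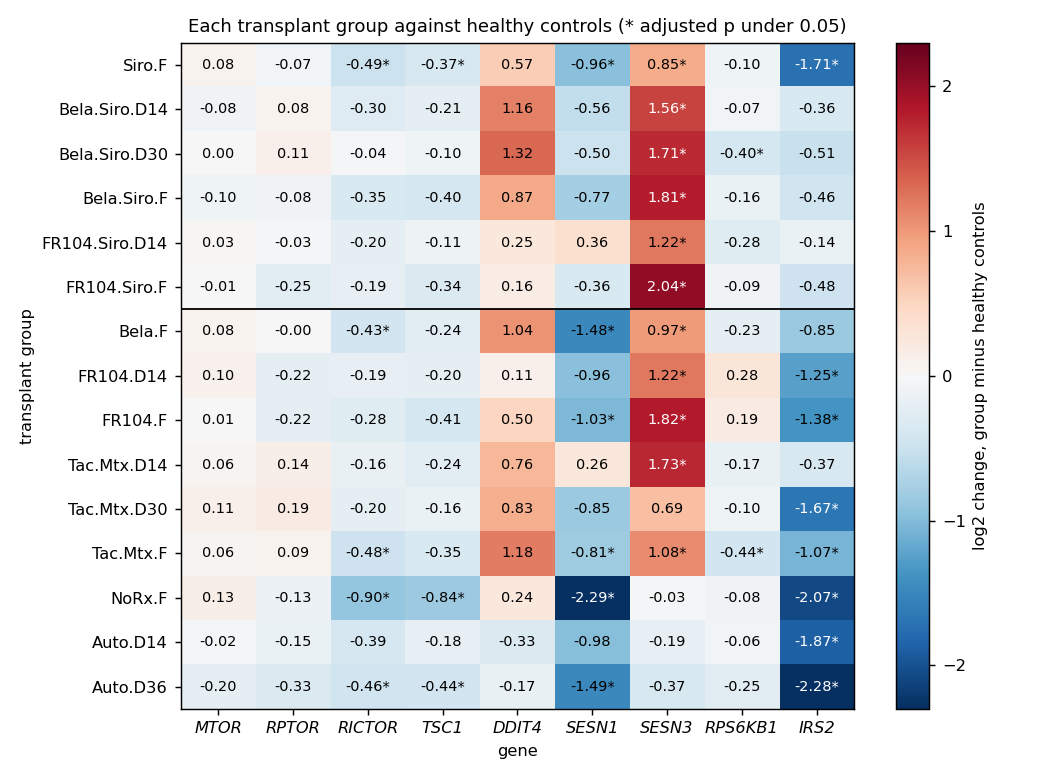
Log2 change of 9 mTOR pathway genes (columns) in each of the 15 transplant groups (rows, sirolimus-containing groups above the line) minus healthy controls. Asterisks mark an adjusted p under 0.05. SESN3 was above healthy controls in 11 groups, with a change of up to 2.04, and SESN1 and IRS2 fell most in NoRx.F and Auto.D36.

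MTOR itself varied little. Its log2 signal ran from 8.17 to 8.83 in the 20 sirolimus-containing arrays (median 8.52), from 8.25 to 8.83 in the 27 other transplant arrays (median 8.55) and from 8.23 to 8.86 in the healthy controls (median 8.52). The largest difference from healthy controls was -0.20 in Auto.D36, where the adjusted p missed the threshold. Its SD among healthy controls, 0.14 on the log2 scale, lay at percentile 13.5 of all genes tested.

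RPTOR, which brings substrates to mTORC1, had log2 signals of 7.85 to 8.54 in sirolimus-containing arrays, 7.71 to 8.54 in other transplant arrays and 7.81 to 8.55 in healthy controls. These ranges coincide almost fully. Its lowest group mean was in Auto.D36, with 7.85, 7.86 and 7.97 and a difference from healthy controls of -0.33 ± 0.13 (SE, adjusted p = 0.082). With the animal as a random block this difference passed the threshold (-0.33, adjusted p = 0.0456).

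RICTOR, the defining subunit of mTORC2, fell most in NoRx.F. The 4 NoRx.F arrays read 9.67, 9.76, 9.86 and 10.34, against 10.51, 10.79 and 11.26 as the lowest, median and highest healthy control. No NoRx.F array reached the healthy range, and the difference was -0.90 ± 0.12 (adjusted p = 9.64e-09). The array at 10.34, replicate 53, was the one NoRx.F array of batch 2. In batch 1 alone the difference was -1.12 (adjusted p = 1.25e-05). RICTOR was also lower in Siro.F (10.21, 10.22, 10.35 and 10.51), a difference of -0.49 ± 0.12 (adjusted p = 0.00174), in Tac.Mtx.F (-0.48 ± 0.13), in Auto.D36 (-0.46 ± 0.14) and in Bela.F (-0.43 ± 0.13). The NoRx.F and Siro.F differences passed in every fit that left 1 array out. The others were lost without 1 array: Tac.Mtx.F without replicate 21 (-0.42), Auto.D36 without replicate 200 (-0.39) or 201 (-0.47) or with the mean of the probe sets (-0.16), and Bela.F without replicate 47 (-0.28) or 46 (-0.41). The Auto.D36 call was also lost with the actin 3' minus 5' signal as a covariate (-0.41, adjusted p = 0.127). In batch 1 alone, with 2 of the 4 Siro.F arrays, the Siro.F difference missed the threshold (-0.60, adjusted p = 0.0571), while batch 2 alone, with the other 2, gave -0.42 (adjusted p = 0.0302). The second RICTOR probe set also read lower in NoRx.F than in healthy controls (-0.63 ± 0.21, adjusted p = 0.0128, over all probe sets of the genes).

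TSC1, the scaffold of the complex that keeps the mTOR activator Rheb off, followed a similar order. NoRx.F arrays read 7.70, 7.98, 8.06 and 8.32, against 8.44, 8.87 and 9.22 as the lowest, median and highest healthy control. The 4 NoRx.F values lay below every healthy control, and the difference was -0.84 ± 0.12 (adjusted p = 9.81e-08, and -1.0 in batch 1 alone). In every other transplant group the mean lay between 8.44 and 8.77, and the gap between NoRx.F (mean 8.02) and the next lowest group, Auto.D36, was larger than the SD of either. TSC1 was also lower in Siro.F (-0.37 ± 0.12), a call lost without replicate 13 (-0.31) or 16 (-0.33) and in either batch alone (-0.46 and -0.31), and in Auto.D36 (-0.44 ± 0.15), a call lost without any 1 of its 3 arrays (-0.45 to -0.42) and with the actin 3' minus 5' signal, a measure of RNA quality, as a covariate (-0.24, adjusted p = 0.421).

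DDIT4, a stress-induced inhibitor of mTORC1, was the most variable of the genes in healthy animals. Healthy controls ran from 7.96 over a median of 9.24 to 10.79, with an SD of 0.82, at percentile 99.1 of all genes tested. The largest differences from healthy controls were in Bela.Siro.D30 (10.53, 10.61 and 10.62), Tac.Mtx.F (10.22, 10.43 and 10.70), Bela.Siro.D14 (9.68, 10.77 and 10.85) and Bela.F (10.26, 10.30 and 10.37). All 12 arrays were above the healthy median, and 1 of them, in Bela.Siro.D14, was above the highest healthy control. The differences were 1.32, 1.18, 1.16 and 1.04, each ± 0.48, and missed the threshold (adjusted p = 0.0808, 0.0903, 0.179 and 0.136), although that of Bela.Siro.D30 passed without a batch term (1.30, adjusted p = 0.0441). All transplant groups of batch 3 (Bela, Bela.Siro and Tac.Mtx) had DDIT4 means of 10.03 to 10.59, above every other group (9.86 or lower). Batch and prophylaxis cannot be told apart in this order. Between the sirolimus-containing and the other transplant groups the difference was 0.26 ± 0.23 (adjusted p = 0.407), with an interval from -0.20 to 0.72.

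**Figure D2:**
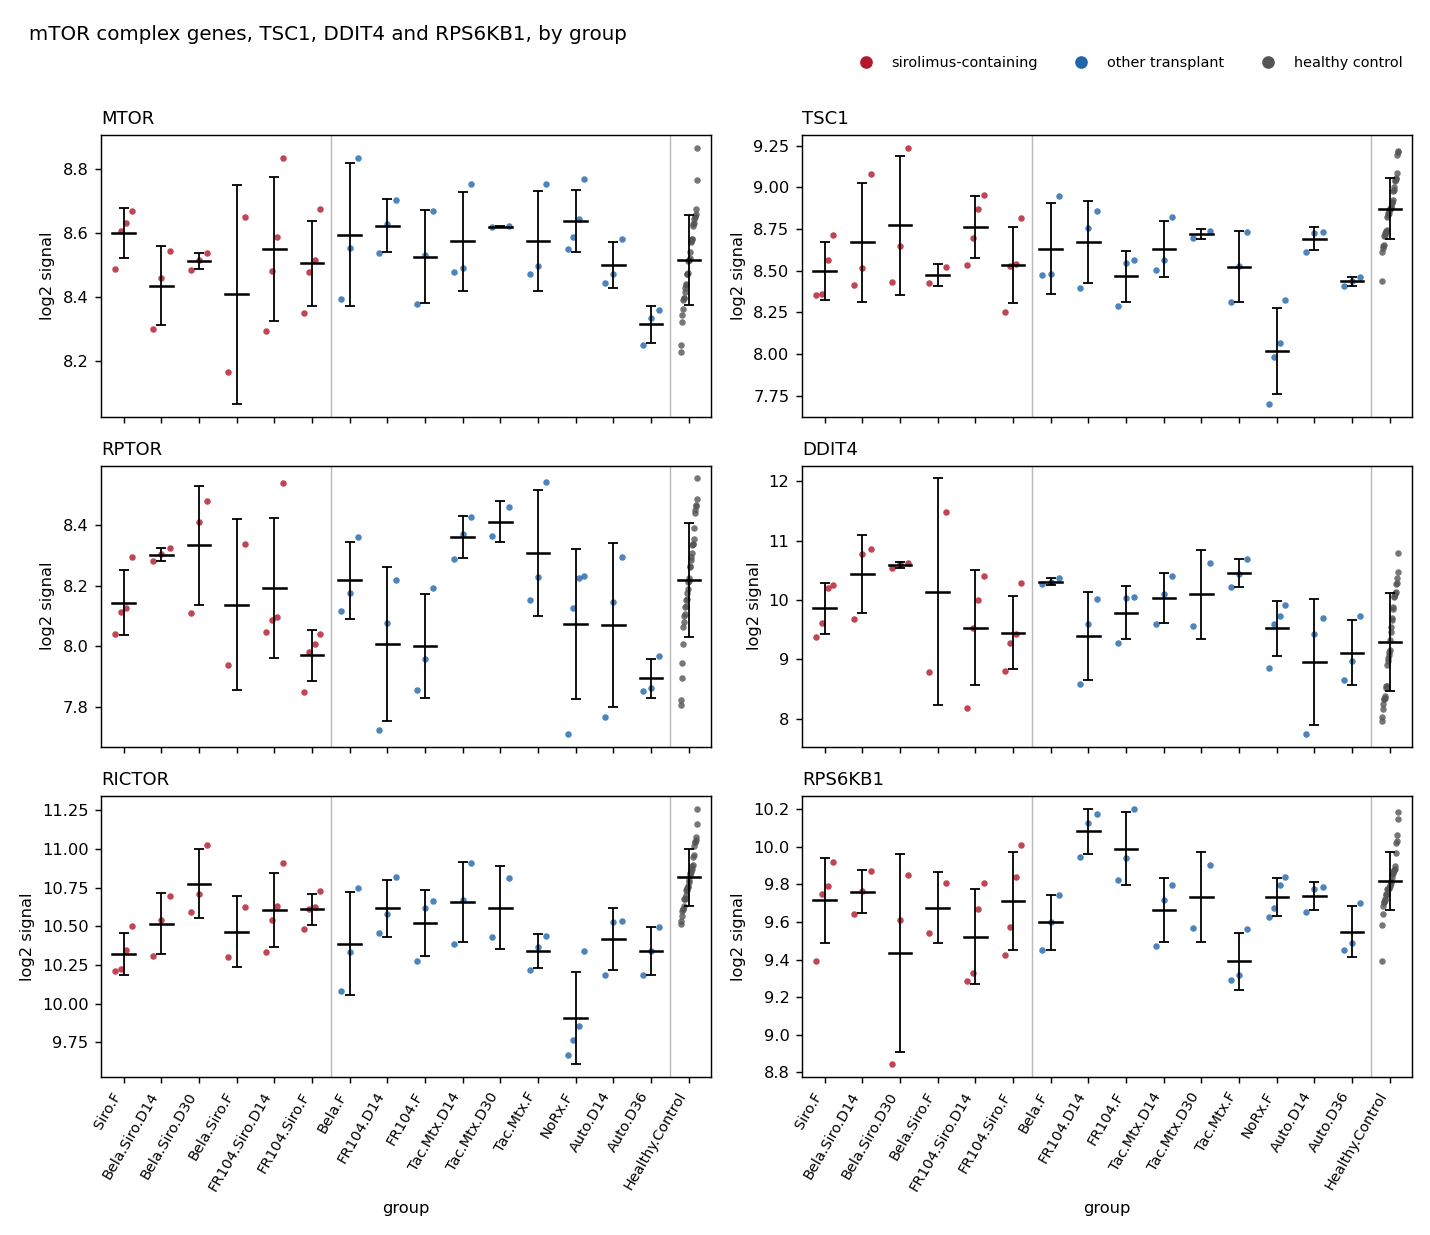
Log2 signal of 6 genes in each of the 81 arrays by group, with group means (bars) and SD (whiskers), and axes that differ between panels. RICTOR and TSC1 are lowest in NoRx.F, while MTOR keeps between 8.17 and 8.86 in every array and DDIT4 spreads widely among healthy controls.

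SESN1, a sestrin also induced by p53, had the largest difference of the 9 genes between NoRx.F and healthy controls. Sirolimus-containing arrays read 8.30, 8.53, 8.74 and 9.01 in Siro.F. They read 8.42, 9.34 and 9.43 in Bela.Siro.D14, 9.0, 9.16 and 9.22 in Bela.Siro.D30, and 8.63 and 9.08 in Bela.Siro.F. FR104.Siro.D14 had 9.48, 9.59, 10.16 and 10.67, and FR104.Siro.F had 8.68, 8.88, 9.13 and 10.33. FR104.Siro.D14 was the 1 sirolimus-containing group of the 6 whose mean, 9.97, lay above the healthy mean of 9.62. The mean of Tac.Mtx.D14, a group without sirolimus, lay above it as well (9.89).

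Among the other transplant groups, SESN1 read 8.06, 8.09 and 8.29 in Bela.F, 8.09, 8.92 and 8.93 in FR104.D14 and 8.16, 8.58 and 9.0 in FR104.F. Tac.Mtx.D14 had 9.39, 9.78 and 10.49, Tac.Mtx.D30 had 8.35 and 9.20, and Tac.Mtx.F had 8.38, 8.85 and 9.20. NoRx.F had 6.67, 6.91, 7.45 and 8.23, Auto.D14 had 8.18, 8.56 and 9.14, and Auto.D36 had 7.99, 8.18 and 8.19. The lowest, median and highest healthy control were 8.91, 9.62 and 10.74. Every array of NoRx.F, Bela.F and Auto.D36 lay below every healthy control. The share of all genes that did so is given here for NoRx.F alone (4.9%). For the smaller groups Bela.F and Auto.D36 the separation therefore has no background beside it.

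The fall of SESN1 against healthy controls was -2.29 ± 0.26 in NoRx.F (4.88-fold, adjusted p = 1.07e-10, and -2.71 in batch 1 alone), -1.49 ± 0.31 in Auto.D36 (adjusted p = 0.000512) and -1.48 ± 0.29 in Bela.F (adjusted p = 9e-05). These 3 calls held in every fit that left 1 array out. In the order of the 16 group means, 2 of the 15 neighbouring pairs differed by more than the larger SD: Auto.D36 above NoRx.F by 0.80 and FR104.F above Bela.F by 0.43. The remaining calls were weaker. FR104.F (-1.03 ± 0.31) lost its call without replicate 22 (-0.82) or 23 (-1.03), Siro.F (-0.96 ± 0.25, and -0.95 and -1.04 in batch 1 and batch 2 alone) without replicate 13 (-0.83), and Tac.Mtx.F (-0.81 ± 0.29) without replicate 19 (-0.60), 20 (-0.84) or 21 (-1.01). The FR104.F call was also lost with the actin 3' minus 5' signal as a covariate (-0.99, adjusted p = 0.0591).

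SESN3, a sestrin whose gene is a known FOXO target, was higher, not lower, in 11 of the 15 transplant groups. Siro.F arrays read 5.31, 5.39, 5.69 and 7.18. Bela.Siro.D14 had 5.65, 6.81 and 7.35, Bela.Siro.D30 had 5.82, 7.13 and 7.32, and Bela.Siro.F had 6.18 and 7.54. FR104.Siro.D14 had 5.69, 5.77, 6.41 and 7.14, and FR104.Siro.F had 6.62, 7.14, 7.16 and 7.39. Apart from 2 Siro.F arrays, every sirolimus-containing array was above the highest healthy control, 5.62.

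In the other transplant groups SESN3 read 5.49, 6.21 and 6.36 in Bela.F, 5.34, 6.19 and 7.22 in FR104.D14 and 6.63, 6.80 and 7.15 in FR104.F. Tac.Mtx.D14 had 6.23, 6.32 and 7.79, Tac.Mtx.D30 had 5.36 and 6.11, and Tac.Mtx.F had 5.45, 6.30 and 6.63. Without prophylaxis, NoRx.F had 4.66, 5.02, 5.13 and 5.25, Auto.D14 had 4.22, 5.13 and 5.19, and Auto.D36 had 4.17, 4.88 and 4.96. The lowest, median and highest healthy control were 4.29, 5.09 and 5.62. The 3 groups that received no prophylaxis therefore overlapped the healthy controls, whose signal lies near the filter value of 4.65, so that changes below it could be hard to see.

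The rise of SESN3 against healthy controls was 2.04 ± 0.33 in FR104.Siro.F (4.12-fold, adjusted p = 1.74e-05), 1.82 ± 0.36 in FR104.F (3.54-fold, adjusted p = 0.000469) and 1.71 ± 0.32 in Bela.Siro.D30 (3.27-fold, adjusted p = 0.000311). These 3 calls held in every fit that left 1 array out. In the order of the 16 group means, the 12 allogeneic groups with a prophylaxis stood above the healthy controls, and the step to the healthy controls from the lowest of them, Tac.Mtx.D30, was 0.69, larger than the SD of either. No other neighbours differed by more than the larger SD.

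The other 8 rises of SESN3 each lost their call without at least 1 array, in some at a similar size. Siro.F (0.85 ± 0.29) read 0.36 without replicate 13 (adjusted p = 0.538), the array at 7.18. It was 0.26 (adjusted p = 0.512) in batch 1 alone and 1.33 (adjusted p = 0.0327) in batch 2 alone. Bela.Siro.F (1.81 ± 0.38) read 1.13 and Bela.Siro.D14 (1.56 ± 0.32) read 1.18 without replicate 42, which gave the highest signal at both times. FR104.Siro.D14 (1.22 ± 0.33) read 0.92 without replicate 27, and Tac.Mtx.D14 (1.73 ± 0.32) read 1.23 without replicate 21. FR104.D14 (1.22 ± 0.36) read 0.73 and 1.25 without replicates 22 and 23. Bela.F (0.97 ± 0.32) read 0.88 and 0.80 without replicates 46 and 57, and Tac.Mtx.F (1.08 ± 0.32) read 0.99 and 0.83 without replicates 20 and 21. All of these values with 1 array left out missed the threshold. FR104.D14 missed it with the actin 3' minus 5' signal as a covariate too (1.22, adjusted p = 0.0635).

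The gene table assigns 5 probe sets to SESN3. In FR104.Siro.F against healthy controls the other 4 read 1.68 ± 0.28, 1.01 ± 0.22, 0.62 ± 0.13 and 0.54 ± 0.19. The first 3 of these passed the threshold over the probe sets of all genes, and the last did not (adjusted p = 0.0675). With the mean of the 5 probe sets, the rises were smaller: 1.18 in FR104.Siro.F, 0.95 in FR104.F and 0.81 in Bela.Siro.D30, all past the threshold. Those in Tac.Mtx.F (0.44), Bela.F (0.45) and FR104.D14 (0.59) then missed it.

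Markers of other cells were set beside SESN3. In the 11 groups where it was higher, 2 or 3 of the 8 monocyte and neutrophil markers were higher too, against 0 to 3 in the other 4 groups. Their mean signal ran from 6.20 to 9.55 in the arrays of those 11 groups. It ran from 5.56 to 8.52 in the other 4 groups and from 5.0 to 7.78 in healthy controls. S100A8, a granule protein of these cells, read 9.39 to 11.80 in FR104.Siro.F and 9.10 to 12.06 in FR104.F, wholly above the highest healthy control of 9.06. In NoRx.F, where SESN3 did not pass, S100A8 read 9.02 to 13.42. Of the 4 markers of dividing cells, 0 to 4 were higher in the 11 groups, and all 4 in each of the other 4 groups. The part of these cells in the SESN3 values was not tested.

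IRS2 is the adaptor that links insulin and cytokine receptors to PI3K. It was lower than in healthy controls in 1 of the 6 sirolimus-containing groups and in 7 of the 9 other transplant groups. These sets are compared directly with each other further below. The IRS2 signal was 6.58, 6.67, 7.13 and 7.46 in Siro.F, 7.79, 8.25 and 9.01 in Bela.Siro.D14, 7.33, 8.18 and 9.06 in Bela.Siro.D30, and 7.58 and 8.92 in Bela.Siro.F. FR104.Siro.D14 had 8.20, 8.44, 8.61 and 8.93, and FR104.Siro.F had 7.85, 7.93, 8.06 and 9.0. All 16 arrays of these Bela.Siro and FR104.Siro groups lay within the healthy range, and 3 of the 4 Siro.F arrays lay below it.

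In the other transplant groups IRS2 read 7.47, 7.82 and 8.28 in Bela.F, 7.10, 7.46 and 7.75 in FR104.D14 and 6.78, 7.28 and 7.87 in FR104.F. Tac.Mtx.D14 had 8.08, 8.10 and 8.82, Tac.Mtx.D30 had 6.78 and 7.30, and Tac.Mtx.F had 7.03, 7.11 and 8.76. NoRx.F had 6.38, 6.53, 6.70 and 6.83, Auto.D14 had 6.56, 6.87 and 7.03, and Auto.D36 had 5.43, 6.82 and 6.97. The lowest, median and highest healthy control were 7.29, 8.80 and 9.52. NoRx.F, Auto.D14 and Auto.D36 lay wholly below the healthy range, although in the order of the 16 group means no neighbours differed by more than the larger SD. The share of all genes wholly below is given here for NoRx.F alone (4.9%), not for the smaller autologous groups.

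Against healthy controls IRS2 fell by 2.28 ± 0.39 on the log2 scale in Auto.D36 (4.86-fold, adjusted p = 3.91e-05), by 2.07 ± 0.33 in NoRx.F (4.21-fold, adjusted p = 4.81e-07, and -2.17 in batch 1 alone) and by 1.71 ± 0.32 in Siro.F (3.28-fold, adjusted p = 7.61e-05, and -1.63 and -1.80 in batch 1 and batch 2 alone). These calls held in every fit that left 1 array out. The fall in Auto.D14, -1.87 ± 0.39, lost its call without replicate 202 (-1.74, adjusted p = 0.0802). FR104.F (-1.38 ± 0.39) lost it without replicate 22 (-1.12) or 23 (-1.36), FR104.D14 (-1.25 ± 0.39) and Tac.Mtx.D30 (-1.67 ± 0.42) without any 1 of their arrays (-1.41 to -1.08 and -1.93 to -1.41), and Tac.Mtx.F (-1.07 ± 0.36) without replicate 19 (-0.81) or 20 (-0.77). With the actin 3' minus 5' signal as a covariate FR104.F (-1.16, adjusted p = 0.071) and FR104.D14 (-1.01, adjusted p = 0.189) missed the threshold too. In every one of the 9 groups where RICTOR, TSC1, SESN1 or IRS2 was lower, all 4 markers of dividing cells were higher than in healthy controls, and in the other 6 transplant groups 0 to 3 were. Their part in these falls was not tested. The second IRS2 probe set fell less in NoRx.F, by 0.82 ± 0.27 (adjusted p = 0.0121).

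**Figure D3:**
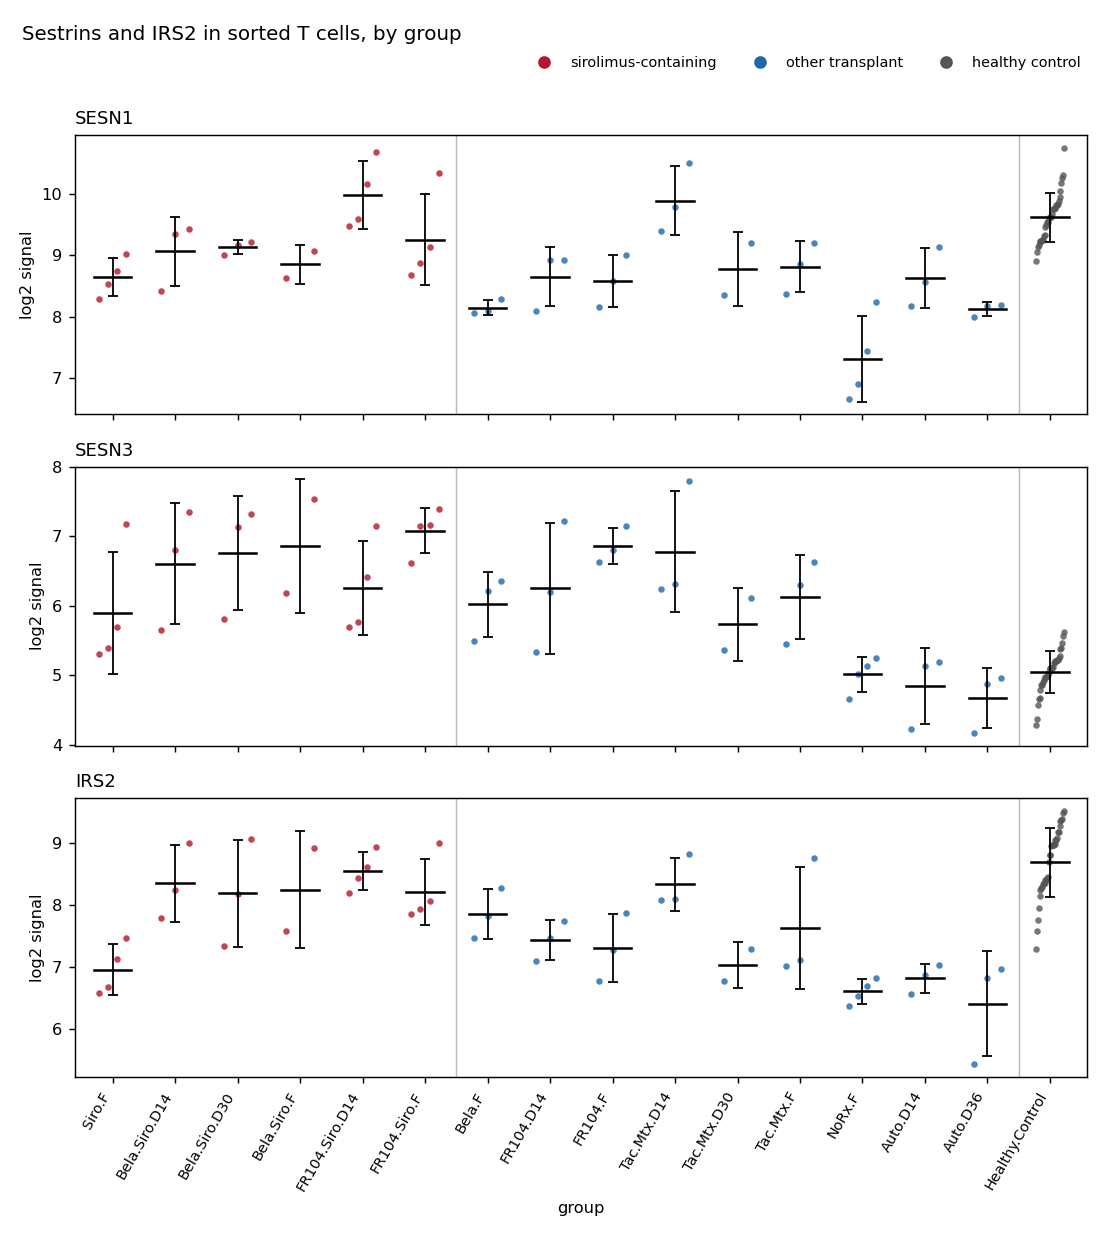
Log2 signal of SESN1, SESN3 and IRS2 in each array by group, with group means (bars) and SD (whiskers). SESN3 lies above the healthy range of 4.29 to 5.62 in most groups with a prophylaxis and within or below it in NoRx.F, Auto.D14 and Auto.D36, which also hold the 3 lowest group means of IRS2.

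The animals with a healthy array of their own allow a comparison within the animal, the mean of its transplant arrays minus its own healthy array. IRS2 was lower in all 5 recipients of sirolimus (-2.94 to -0.43), in all 3 other allogeneic recipients (-2.65 to -1.08) and in all 3 autologous recipients (-2.59 to -0.66). SESN3 was higher in 4 of the 5 recipients of sirolimus (-0.23 to 2.89) and in all 3 other allogeneic recipients (0.67 to 1.62), and lower in all 3 autologous recipients (-0.60 to -0.04). SESN3 read 7.18 in the Siro.F array of replicate 13, against 4.29 in its healthy array, 5.31 against 5.22 (healthy) in replicate 16 and 5.39 against 5.62 (healthy) in replicate 18. The 3 differences were 2.89, 0.09 and -0.23.

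RPS6KB1, the S6 kinase that mTORC1 activates, passed the threshold in 2 of the 15 groups. It was lower in Tac.Mtx.F (9.29, 9.32 and 9.56), a difference of -0.44 ± 0.12 (adjusted p = 0.0121), and in Bela.Siro.D30 (8.84, 9.61 and 9.85), a difference of -0.40 ± 0.12 (adjusted p = 0.0383), against 9.39, 9.79 and 10.19 as the lowest, median and highest healthy control. The Tac.Mtx.F call was lost without replicate 19 (-0.40) or 21 (-0.39). The Bela.Siro.D30 call rested on replicate 49 and read -0.10 without it (-0.49, adjusted p = 0.0584, without replicate 42). With the mean of the probe sets the Bela.Siro.D30 difference was -0.21 and missed the threshold. The 3 probe sets of the gene disagreed in NoRx.F against healthy controls: the one used here read -0.08 ± 0.12, and the others -0.52 ± 0.12 (adjusted p = 0.000453) and 0.00 ± 0.12.

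The question of what sirolimus went with was first put to all 6 sirolimus-containing groups against the 9 other transplant groups, each group weighted equally. SESN1, SESN3 and IRS2 were higher with sirolimus, and no gene of the 9 was lower. Of all genes tested, 30.1% passed the threshold in this comparison, 13.4% as higher. SESN1 averaged 9.19 ± 0.63 in the 20 sirolimus-containing arrays and 8.49 ± 0.81 in the 27 others (SD). SESN3 averaged 6.54 ± 0.77 with sirolimus and 5.79 ± 0.93 without, and IRS2 8.05 ± 0.76 with sirolimus and 7.26 ± 0.75 without. The 2 sets of arrays overlapped for all 3 genes.

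The differences were 0.60 ± 0.14 for SESN1 (1.52-fold, adjusted p = 0.000541), 0.76 ± 0.16 for SESN3 (1.69-fold, adjusted p = 0.000147) and 0.81 ± 0.17 for IRS2 (1.76-fold, adjusted p = 0.000212). All 3 held in each of the 47 fits that left 1 array out, which keep any other array of the same animal. The Bela.Siro groups share animals, as do the FR104.Siro groups, and no fit left out a whole animal. With the animal as a random replicate block the differences were 0.59, 0.75 and 0.80 (adjusted p = 0.00213, 0.000448 and 0.000999). MTOR differed by -0.05, RPTOR by 0.03, RPS6KB1 by -0.09, TSC1 by 0.09 and RICTOR by 0.12, with adjusted p from 0.124 to 0.709, and the 95% interval of MTOR ran from -0.14 to 0.04. RICTOR passed with arrays weighted equally (0.15, adjusted p = 0.0468) and after a repeated quantile normalization (0.17, adjusted p = 0.0316). With the mean of its probe sets SESN3 differed by 0.45 (adjusted p = 4.8e-05). The median over the 9 genes was 0.12, against 0.01 over all genes.

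These pooled differences depended on which groups stood against sirolimus. Against the 7 other allogeneic groups they were 0.56, 0.46 and 0.63 for SESN1, SESN3 and IRS2, all past the threshold. Without NoRx.F and the autologous groups, so that only recipients of another prophylaxis remained, they were 0.35, 0.28 and 0.49 and none passed (adjusted p = 0.102, 0.258 and 0.0647). In final samples alone SESN1 passed (0.70, adjusted p = 0.0129), and SESN3 (0.61, adjusted p = 0.0682) and IRS2 (0.46, adjusted p = 0.244) did not.

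Batches gave different sizes. Batch 4 (FR104.Siro against FR104 and autologous groups) gave 1.12, 1.01 and 1.38, all past the threshold. Batch 3 (Bela.Siro against Bela and Tac.Mtx) gave 0.11, 0.57 and 0.55, none past it (adjusted p = 0.803, 0.209 and 0.256). Batches 1 and 2 (Siro.F against NoRx.F) gave 1.32, 0.88 and 0.36, of which SESN1 passed (adjusted p = 0.00309). Each prophylaxis lies in its own batches, so that batch and prophylaxis cannot be told apart between these values. Without the 8 arrays of high spike-in signal SESN1 missed the threshold (0.27, adjusted p = 0.244), while SESN3 (0.95) and IRS2 (0.77) passed. That subset held no FR104.Siro.D14 array, the group with the highest SESN1 mean. With the spike-in signal as a covariate and all arrays kept, SESN1 (0.54, adjusted p = 0.00455), SESN3 (0.88) and IRS2 (0.88) passed.

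**Figure D4:**
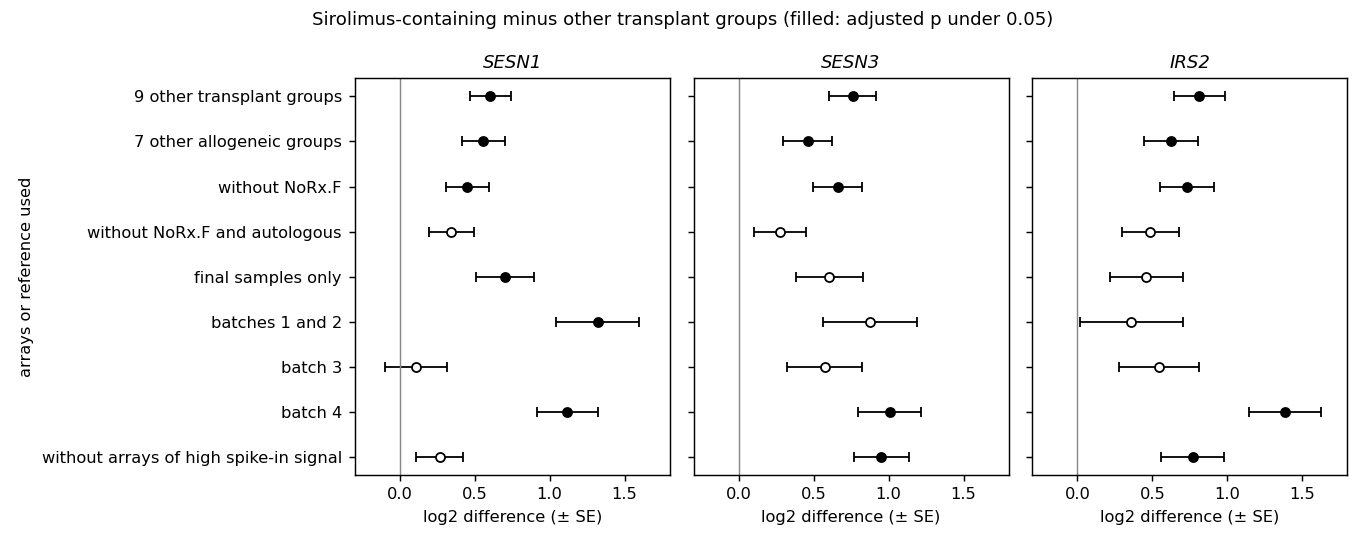
Log2 difference (± SE) of SESN1, SESN3 and IRS2 between sirolimus-containing and other transplant groups, by the arrays or reference used (rows). Filled points passed an adjusted p of 0.05. With recipients of another prophylaxis alone as the reference, the 3 differences are 0.35, 0.28 and 0.49 and none is filled.

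Markers of dividing cells moved with this comparison. All 4 were lower with sirolimus, with MKI67 at -1.20 ± 0.16, and their mean signal ran from 4.72 to 9.21 in sirolimus-containing arrays, against 5.98 to 10.07 in the other transplant arrays. Of the other marker lists, 1 of 4 B cell and 1 of 3 plasma cell markers were higher, 1 of 5 erythroid and 1 of 3 T cell markers lower, and none of the 8 monocyte and neutrophil, 4 platelet and 3 NK cell markers passed. The part of these cells in the values of SESN1, SESN3 and IRS2 was not tested.

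Sirolimus added to the same partner was compared within FR104 and within Bela. Early FR104.Siro.D14 arrays against FR104.D14 gave 2 of the 9 genes past the threshold, SESN1 as higher (1.49% of all genes) and RPS6KB1 as lower (2.96% of all genes). SESN1 read 9.48, 9.59, 10.16 and 10.67 in FR104.Siro.D14, against 8.09, 8.92 and 8.93 in FR104.D14. The groups did not overlap, and the difference was 1.33 ± 0.34 (2.51-fold, adjusted p = 0.0144). RPS6KB1 read 9.29, 9.33, 9.67 and 9.81 in FR104.Siro.D14, against 9.94, 10.13 and 10.18 in FR104.D14, also without overlap (-0.56 ± 0.15, adjusted p = 0.0184). Its other 2 probe sets read 0.07 ± 0.16 and -0.14 ± 0.16 there, and the mean of the 3 read -0.21 (adjusted p = 0.254). IRS2, at 8.20 to 8.93 in FR104.Siro.D14 and 7.10 to 7.75 in FR104.D14, did not overlap either, but its difference of 1.11 ± 0.43 missed the threshold (adjusted p = 0.11). In all, 2 of the 9 genes in FR104.Siro.D14 lay wholly above and 1 wholly below FR104.D14, as did 6.31% and 8.5% of all genes.

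These calls were sensitive to single arrays. SESN1 lost its call without FR104.D14 replicate 23 (1.05, adjusted p = 0.0805) or FR104.Siro.D14 replicate 29 (1.09, adjusted p = 0.0927), and with the spike-in signal as a covariate (1.16, adjusted p = 0.0764). RPS6KB1 lost its call without FR104.D14 replicate 22 (-0.54) or 23 (-0.51) or FR104.Siro.D14 replicate 27 (-0.50) or 29 (-0.48). With the 2 FR104.Siro.D14 arrays of day 14 alone, SESN1 differed by 1.23 and RPS6KB1 by -0.35, and no gene of the 9 passed. All 4 markers of dividing cells were lower in FR104.Siro.D14 (MKI67 at -2.27 ± 0.40), at a mean signal of 4.72 to 6.40, against 7.42 to 8.16 in FR104.D14. Their part in these differences was not tested.

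In final samples no gene of the 9 passed. FR104.Siro.F against FR104.F had 0.00847% of all genes past the threshold and Bela.Siro.F against Bela.F 0.457%. None of the 4 markers of dividing cells passed in either. IRS2 was 7.85, 7.93, 8.06 and 9.0 in FR104.Siro.F, against 6.78, 7.28 and 7.87 in FR104.F (0.90 ± 0.43, adjusted p = 0.64). The groups overlapped by 1 array, and IRS2 was the 1 gene of the 9 with an unadjusted p under 0.05 in limma. SESN1 differed by 0.67 ± 0.34 in FR104.Siro.F and by 0.70 ± 0.41 in Bela.Siro.F, with intervals from -0.01 to 1.35 and from -0.11 to 1.51. SESN3 differed by 0.22 ± 0.39 in FR104.Siro.F and by 0.84 ± 0.46 in Bela.Siro.F, with intervals from -0.55 to 0.99 and from -0.09 to 1.76. No gene of the 9 had an unadjusted p under 0.05 in Bela.Siro.F against Bela.F. Differences of the sirolimus effect between FR104, Bela and no partner, and between final and early FR104 samples, were tested as contrasts, and none of the 36 passed (lowest adjusted p = 0.387). Some were imprecise, such as SESN1 (-0.65 ± 0.47) and SESN3 (-0.66 ± 0.53) for FR104 minus no partner, so unlike effects could be missed. TSC1 for Bela minus no partner (-0.63 ± 0.24) was the 1 difference with an unadjusted p under 0.05 in limma.

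**Figure D5:**
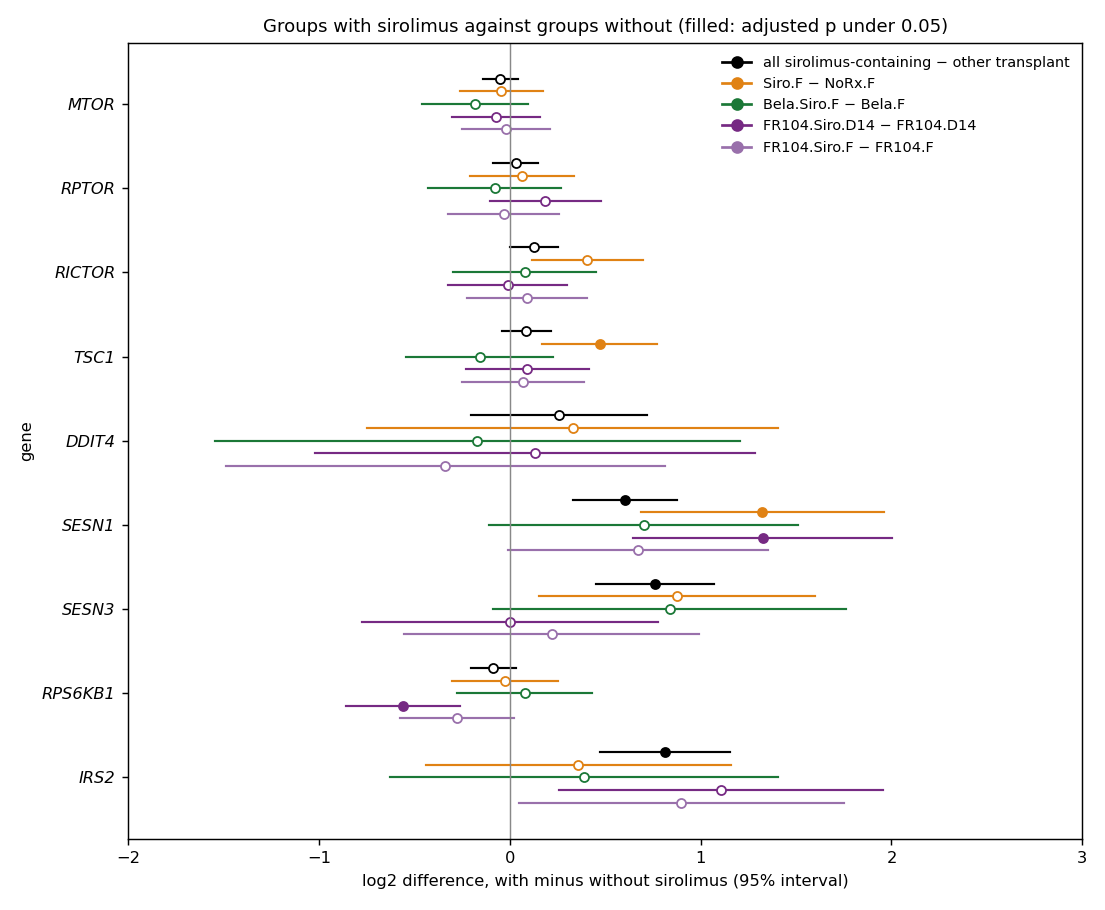
Log2 difference of each gene between groups with and without sirolimus, with 95% intervals, for the pooled and 4 matched comparisons. Filled points passed an adjusted p of 0.05. SESN1 differences are all above 0, from 0.60 to 1.33, while those of MTOR lie between -0.19 and -0.02.

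Sirolimus alone, as Siro.F against NoRx.F, went with higher SESN1 and TSC1, 2 of the 9 genes, beside 5.39% of all genes. SESN1 was 8.30 to 9.01 in Siro.F and 6.67 to 8.23 in NoRx.F, without overlap, a difference of 1.32 ± 0.32 (2.50-fold, adjusted p = 0.00272, and 1.76 in batch 1 alone). It held in every fit that left 1 array out. TSC1, at 8.35 to 8.71 in Siro.F and 7.70 to 8.32 in NoRx.F, differed by 0.47 ± 0.15 (adjusted p = 0.0278). TSC1 lost its call without NoRx.F replicate 50 (0.37) or 51 (0.46) or Siro.F replicate 17 (0.44) or 18 (0.41), and in batch 1 alone (0.54, adjusted p = 0.118). SESN3 too lay wholly above NoRx.F (5.31 to 7.18 in Siro.F, 4.66 to 5.25 in NoRx.F), but its difference of 0.88 ± 0.36 missed the threshold (adjusted p = 0.104). Among all genes 6.28% lay wholly above, against these 3 of the 9. RICTOR differed by 0.41 ± 0.15 (adjusted p = 0.0559) and passed with the animal as a block (0.43, adjusted p = 0.0399) or without NoRx.F replicate 53 (0.59). Of the 4 markers of dividing cells 2 were lower in Siro.F, and MKI67 read 7.33 to 9.10 in Siro.F and 9.38 to 10.32 in NoRx.F (-1.74 ± 0.38). Their part in these differences was not tested.

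The same NoRx.F arrays stood against the combined regimens. NoRx.F lay in batches 1 and 2, FR104.Siro.F in batch 4 and Bela.Siro.F in batch 3. These comparisons therefore run between batches that only healthy controls join, and batch and prophylaxis cannot be told apart in them. FR104.Siro.F was higher for RICTOR (0.70 ± 0.18), SESN1 (1.93 ± 0.39), SESN3 (2.07 ± 0.44), IRS2 (1.59 ± 0.49) and TSC1 (0.50 ± 0.18), 5 of the 9 genes, beside 6.56% of all genes. IRS2 lost its call without FR104.Siro.F replicate 29 (1.33), and TSC1 without any 1 of 6 arrays (0.40 to 0.52). Bela.Siro.F was higher for SESN1 (1.51 ± 0.43), SESN3 (1.84 ± 0.49) and IRS2 (1.62 ± 0.54), 3 of the 9, beside 4.22% of all genes. Without Bela.Siro.F replicate 42 these read 1.74, 1.16 and 0.95 and none passed, and SESN1 was also lost without Bela.Siro.F replicate 38 (1.29) or NoRx.F replicate 52 (1.31), and IRS2 without NoRx.F replicate 50, 51 or 52 (1.54 to 1.64). With the mean of the probe sets SESN3 differed by 1.19 in FR104.Siro.F and 0.99 in Bela.Siro.F, both past the threshold, and IRS2 by 1.02 in each, past it in neither. Of the 4 markers of dividing cells 2 were lower in each of these comparisons.

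Regimens without sirolimus showed part of this against NoRx.F. They too lay in other batches than NoRx.F, with the same limit. FR104.F was higher for RICTOR (0.61 ± 0.19), SESN1 (1.26 ± 0.41) and SESN3 (1.85 ± 0.47), 3 of the 9 beside 3.54% of all genes, and all 3 calls were lost without FR104.F replicate 23 (0.54, 1.26 and 1.71). RICTOR and SESN1 were lost without FR104.F replicate 24 (0.56 and 1.04) or NoRx.F replicate 50, 51 or 52 too (0.54 to 0.60 and 1.06 to 1.30). Tac.Mtx.F was higher for SESN1 alone (1.47 ± 0.39, adjusted p = 0.0106, and 1.28 and not past the threshold without Tac.Mtx.F replicate 21), beside 4.7% of all genes. Bela.F passed for none of the 9, with 1.86% of all genes past the threshold, although 5 of the 9 had an unadjusted p under 0.05 in limma. TSC1 passed there with the animal as a block (0.63, adjusted p = 0.0414). SESN3 in FR104.F differed by 0.96 with the mean of its probe sets, still past the threshold. Markers of dividing cells were lower than in NoRx.F for 1 of 4 in FR104.F, 3 of 4 in Tac.Mtx.F and 0 of 4 in Bela.F.

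Against autologous recipients at day 14, who share the lack of a prophylaxis, NoRx.F was lower for TSC1, 1 of the 9 genes, beside 1.43% of all genes. Auto.D14 also lay in another batch than NoRx.F, so batch and donor type cannot be told apart here. The arrays read 7.70 to 8.32 in NoRx.F and 8.61, 8.73 and 8.73 in Auto.D14, a difference of -0.66 ± 0.19 (adjusted p = 0.0418). The call was lost without any 1 of 6 arrays, at -0.70 to -0.56. SESN1 differed by -1.30 ± 0.41 (adjusted p = 0.0585) and passed with the animal as a block (-1.34, adjusted p = 0.0279). Of the 4 markers of dividing cells 2 were higher in NoRx.F.

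Over time, the 4 FR104.Siro animals can be followed one by one. In FR104.Siro.F relative to FR104.Siro.D14, SESN1 was lower in all 4 animals (-1.28 to -0.34) and SESN3 higher in all 4 (0.25 to 1.45), while RPTOR (-0.50 to -0.09) and TSC1 (-0.70 to -0.0038) were lower in all 4 too. The fitted differences of SESN1 and SESN3 were -0.72 ± 0.31 and 0.83 ± 0.36, and neither passed (adjusted p = 0.175 and 0.172). With the spike-in signal as a covariate, which was high in all 4 FR104.Siro.D14 arrays, they were -0.56 and 0.52. Of the 4 markers of dividing cells 3 were higher in FR104.Siro.F, with a mean signal of 6.43 to 8.07 in FR104.Siro.F and 4.72 to 6.40 in FR104.Siro.D14, and their part was not tested. No gene of the 9 passed, with 3.1% of all genes past the threshold. In Auto.D36 relative to Auto.D14 none passed either (0.974% of all genes), and SESN1, SESN3, TSC1, MTOR and RPS6KB1 were each lower in all 3 animals.

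The genes next to these in the pathway were taken from 8 lists chosen with earlier results of these data known. In NoRx.F against healthy controls, where 20% of all genes were higher and 15.4% lower, 4 of the 10 measured genes of the mTOR complexes and the sirolimus receptor were higher and 1, RICTOR, lower. The mTORC2 subunit MAPKAP1 was higher by 1.04 ± 0.13, the mTORC1 subunit AKT1S1 by 0.38 ± 0.13 and MLST8, a subunit of both, by 0.43 ± 0.11. Of 11 genes of the TSC complex, Rheb and the stress brakes 3 were higher and 4 lower, and TBC1D7, another subunit of the TSC complex, was higher by 1.17 ± 0.22 while TSC1 was lower. Of 20 genes of the PI3K input 3 were higher and 8 lower. The catalytic subunit PIK3CA was lower (-1.59 ± 0.17), the regulatory subunit PIK3R1 (-1.23 ± 0.17) and the inhibitor PIK3IP1 (-1.73 ± 0.23).

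FOXO-regulated genes, a list that holds SESN1, SESN3 and IRS2, showed 9 of 14 lower and 1 higher in NoRx.F against healthy controls, with a median of -0.77 against 0.05 over all genes. TXNIP, which limits glucose uptake, was lower (-1.76 ± 0.17), and the cell cycle inhibitor CDKN1B (-1.43 ± 0.15). Of 10 glucocorticoid-induced genes, a list that holds DDIT4 and IRS2, 4 were lower and 1 higher, with TSC22D3 at -1.41 ± 0.17. Of 21 amino acid sensing genes 5 were higher and 4 lower, with the Ragulator subunits LAMTOR1 at 0.61 ± 0.11 and LAMTOR2 at 0.66 ± 0.12. Of 11 genes of the S6 kinase and 4E-BP output 2 were higher and 2 lower, with RPS6, the ribosomal protein that S6 kinase phosphorylates, at -0.25 ± 0.03. Of 11 amino acid synthesis and transport genes driven by ATF4 and mTORC1, 2 were higher, PHGDH by 1.49 ± 0.25 and SHMT2 by 1.17 ± 0.18, and 0 lower.

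Beside these values, all 4 markers of dividing cells were higher in NoRx.F, at a mean signal of 8.90 to 10.07, against 5.27 to 7.05 in healthy controls. Of the 8 monocyte and neutrophil markers 3 were higher, S100A8 by 4.64 ± 0.79 and S100A9 by 4.91 ± 0.83. Their mean signal ran from 6.58 to 8.52 in NoRx.F, against 5.0 to 7.78 in healthy controls, with CSF3R the weakest. Of the other marker lists, 1 of 4 B cell and 1 of 3 plasma cell markers were higher, 1 of 3 NK cell and 1 of 3 T cell markers lower, and 0 of 5 erythroid and 0 of 4 platelet markers passed. The part of these cells in the pathway values was not tested.

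In the pooled sirolimus comparison, 4 of the 10 genes of the mTOR complexes and the sirolimus receptor were lower, beside 16.7% of all genes, and the list's median was -0.07. PRR5L, an mTORC2 partner, was lower (-1.27 ± 0.17; mean log2 signal 7.06 ± 0.81 with sirolimus, 8.30 ± 0.72 without, SD). The other 3, MLST8, AKT1S1 and MAPKAP1, were lower (-0.19 to -0.16). Of the 20 genes of the PI3K input 5 were higher and 3 lower, with the receptor IGF1R at 0.38 ± 0.08, the lipid phosphatase INPP5D at -0.51 ± 0.07 and the catalytic subunit PIK3CD at -0.42 ± 0.11. Of the 14 FOXO-regulated genes 5 were higher, 3 of them SESN1, SESN3 and IRS2, and 2 lower, CCNG2 (-0.81 ± 0.16) and BCL2L11 (-0.57 ± 0.11). The glutamine transporter SLC1A5 was lower (-0.55 ± 0.10) and PHGDH (-0.40 ± 0.13), while ATF4 (0.17 ± 0.06) and the amino acid transporter SLC7A5 (0.27 ± 0.09) were higher. Of the 11 genes of the TSC complex and brakes 2, both sestrins, were higher and 1, TBC1D7, was lower (-0.45 ± 0.11). Of 21 amino acid sensing genes 2 were higher and 2 lower, of 11 genes of the S6 kinase and 4E-BP output 3 and 2, and of 10 glucocorticoid-induced genes 2 and 0.

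The genes most like each member were ranked by Pearson's r over the 16 fitted group levels, a description over groups that share batches and animals. IRS2 was followed most closely by MAML3 (r = 0.97), RASGRF2 (0.95) and RNF130 (0.94). RICTOR was followed by AKAP9 (0.96), PAN3 (0.94) and MACF1 (0.94), SESN1 by CBX7 (0.94), TTC12 (0.93) and RABGAP1L (0.91), and SESN3 by MYB (0.91), SLC35G1 (0.91) and PIM1 (0.90). The nearest gene was PCF11 for TSC1 (0.93), PACS2 for RPTOR (0.92), FCRL1 for DDIT4 (0.93), ZBTB7A for RPS6KB1 (0.92) and SIRT5 for MTOR (0.86). Among the members, RICTOR and TSC1 were the closest pair (0.87), before RICTOR and SESN1 (0.81) and SESN1 and IRS2 (0.79).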

How the data were processed

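Per the submitters' processing notes, the authors made the deposited log2 signals with RMA in affy, and no versions are given. When the 4 batches of healthy controls were set against each other by an F test, p exceeded 0.95 for 62% of genes, so the deposited values appear to be adjusted for batch already and their spread may be understated. Symbols came from a table of the platform's annotation: of 52865 probe sets, 24969 had 1 gene, 361 several and 27535 none.

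All 81 arrays entered 1 fit of limma 3.58.1 (lmFit, eBayes with a trend, and statmod 1.5.0 in R 4.3.3), with terms for group and batch and 62 residual degrees of freedom. Tests were 2-sided, adjusted by Benjamini-Hochberg over 11807 genes in each of 28 comparisons, at a threshold of 0.05. The filter value, 4.65, is the 40th percentile of the deposited signals. SE, adjusted p, folds and intervals are from this fit, and means ± SD are over arrays. The number of arrays limits the precision. The fit was tested on simulated data with independent noise, unlike real arrays that share an animal. Of 100 planted changes of 1 on the log2 scale it found 83 to 99 by comparison. Of 100 smaller ones it found 92 in the pooled comparison and 58 in NoRx.F against healthy controls. It found 41 in Siro.F against NoRx.F and 32 in FR104.Siro.D14 against FR104.D14, so small changes could be missed there. Only 100 changes of each size were planted among 11807 genes, whereas 30.1% of genes passed in the pooled comparison of the real data. The adjustment depends on that share, so these rates may not carry over.

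The labels number the animals, so arrays of 1 animal are paired by design. Residual correlations were 0.30 to 0.39 between FR104.Siro.F and FR104.Siro.D14 (4 pairs) and 0.21 to 0.36 between Auto.D36 and Auto.D14, 0.18 to 0.31 between Auto.D14 and healthy arrays, and -0.195 to -0.0943 between Siro.F and healthy arrays (3 pairs each). The genes, gene lists and comparisons were chosen with earlier results of these data known. Named list genes are up to 4 per list and comparison with the smallest adjusted p, of which a part is printed.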

Additional observations from a re-analysis of the deposited data

Results flagged for a closer look

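RPTOR in FR104.Siro.D14 had 1 array far from the other 3: replicate 26 read 8.54, and the next highest 8.10. It was the 1 extreme value among the 36 sets of 1 gene in 1 group of 4 arrays that were tested, and chance marks about 1 in 20 such sets.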

How the results depend on the processing

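Of 252 values (9 genes in 28 comparisons), 55 passed the threshold. None of the 55 turned its direction in any alternative, 31 kept their call in every alternative that used all arrays of a comparison or named a subset, and 19 in every fit that left out 1 array. Of the 197 others, 23 passed in some alternative. The cause was not tested where a call changed. With 9 genes, counts of genes past the threshold moved by more than 1.5 times as follows. Without a batch term the count was 2 in Bela.F and 4 in Tac.Mtx.F against NoRx.F, 3 in NoRx.F against Auto.D14, and 2 in FR104.Siro.D14, 2 in FR104.Siro.F and 3 in Auto.D14 against healthy controls. With the animal as a random replicate block (correlation 0.194) it was 1 in Bela.F against NoRx.F, 2 in NoRx.F against Auto.D14 and 2 in Auto.D14 against healthy controls; the block added 7 calls, of which those of SESN1 in FR104.D14 (-0.99, adjusted p = 0.0329) and Auto.D14 (-0.94, adjusted p = 0.0348) and of TSC1 in FR104.F (-0.44, adjusted p = 0.029), all against healthy controls, are not named above, and it ended none. Without the filter it was 1 in FR104.D14 against healthy controls. With the mean of a gene's probe sets it was 1 in FR104.Siro.D14 against FR104.D14, 0 in NoRx.F against Auto.D14, and 1 each in Bela.Siro.D30 and FR104.D14 against healthy controls. After a repeated quantile normalization, which moved the median of all genes by up to 0.0547 (in that comparison), it was 1 in FR104.Siro.D14 against FR104.D14. Covariates were chosen after seeing the data. With the spike-in signal the count was 1 in FR104.Siro.D14 against FR104.D14 and 1 in Bela.Siro.D30 and 2 in Auto.D14 against healthy controls, and with the actin 3' minus 5' signal 1 in Bela.Siro.D30, 0 in FR104.D14, 1 in FR104.F and 2 in Auto.D36. The pooled sirolimus comparison had 1 in final samples, 0 in batch 3 and 0 without NoRx.F and the autologous groups, a reference chosen after seeing the data. Batch 1 alone gave 1 in Siro.F against NoRx.F and 2 in Siro.F against healthy controls, and the day 14 arrays alone 0 in FR104.Siro.D14 against FR104.D14.

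With 1 array left out, the count stayed at 3 in the pooled comparison and at 4 in NoRx.F against healthy controls. It was 0 to 2 in FR104.Siro.D14 against FR104.D14, 1 to 3 in Siro.F, 4 to 5 in FR104.Siro.F, 0 to 4 in Bela.Siro.F, 0 to 3 in FR104.F, 0 to 2 in Bela.F and 0 to 3 in Tac.Mtx.F against NoRx.F, 0 to 3 in NoRx.F against Auto.D14, and 0 to 1 between the FR104.Siro times. Against healthy controls it was 2 to 5 in Siro.F, 0 to 1 in Tac.Mtx.D14, 0 in Tac.Mtx.D30, 1 to 3 in Tac.Mtx.F, 1 to 2 in Bela.F, 0 to 1 in Bela.Siro.D14, 1 to 2 in Bela.Siro.D30, 0 to 1 in Bela.Siro.F, 0 to 1 in FR104.D14, 1 to 3 in FR104.F, 0 to 2 in FR104.Siro.D14, 1 to 2 in FR104.Siro.F, 0 to 2 in Auto.D14 and 2 to 3 in Auto.D36. Where this left a group with 1 array, that array was assumed to vary like the other groups.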
